A study of Homo sapiens with 12 samples.

Results

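The epidermal growth factor (EGF) ligands and ERBB receptors were followed in 2 established lines of human pancreatic carcinoma cells, AsPC-1 and PANC-1. The group holds 9 genes out of 39099 measured by summing transcript abundances: the 6 ligand genes AREG, EREG, HBEGF, TGFA, BTC and EPGN, and the 3 receptor genes EGFR, ERBB2 and ERBB3. They were chosen by name, and their transcript rows were summed to genes through GENCODE v44 symbols. Each cell line was studied as mock control cells, as cells overexpressing TAp63 and as cells overexpressing deltaNp63. TP63 encodes a transcription factor of the p53 family; its upstream promoter gives the TA proteins and a promoter inside the gene gives the deltaN proteins, which lack the first activation domain. The 6 groups of cell line and construct held 2 libraries each, labelled as biological replicates, so 12 libraries were available. The vector, the way it was delivered, the time after delivery and whether a line was a single clone are not given in the sources used here.

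All values are in TPM, a relative transcript abundance that is scaled by transcript length, so that levels can be compared between genes, and by the total of a library. TP63, summed over its transcripts, stood at 0.817 and 1.10 TPM in AsPC-1 mock, between 102.3 and 169.7 TPM with TAp63 and between 245.1 and 350.4 TPM with deltaNp63. In PANC-1 it stood at 0.0245 and 0.119 TPM in mock, between 323.8 and 342.2 TPM with TAp63 and between 814.8 and 1187.1 TPM with deltaNp63. The sum does not separate the TA from the deltaN class. Each library held 12212 to 13161 genes at 1 TPM or more. The epithelial markers EPCAM, KRT8, KRT18 and KRT19 were at or above 42.6 TPM in every library of both lines. CDH1 stood at 81.8 to 123.1 TPM in AsPC-1 and 2.37 to 3.74 TPM in PANC-1, and KRT7 at 9.24 to 13.1 TPM and 13.7 to 17.5 TPM. The leukocyte markers PTPRC and CD3E stayed at or below 0.0552 TPM. Among the markers of other cells, LYZ and LUM in AsPC-1 and COL1A1 in PANC-1 were the exceptions, at 102.4 to 129.6, 176.7 to 287.5 and 80.8 to 111.4 TPM. The first AsPC-1 deltaNp63 library stood apart: its summed epithelial markers reached 7141.6 TPM against 9544.8 to 10564.9 TPM in the other AsPC-1 libraries. The members' log2 fold changes with deltaNp63 against mock in AsPC-1 and the correlations below are given with and without it.

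The ligands of this family are made as membrane-bound precursors, and cell-surface proteases such as ADAM17 release their soluble forms. A released ligand binds a receptor, the receptors pair, and their kinase domains start the RAS to ERK and the PI3K to AKT cascades. AREG, EREG, HBEGF, TGFA, BTC and EPGN all bind EGFR, and EREG, HBEGF and BTC also bind ERBB4. ERBB2 has no known ligand and serves as the preferred partner of the other receptors, while ERBB3 binds neuregulins and has a very weak kinase of its own. In pancreatic cancer, signalling through EGFR has long been studied as an input to these cascades.

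Of the 9 genes, 4 ligand genes lie next to each other on chromosome 4 (hg38), with no annotated protein-coding gene between them. EPGN occupies chr4:74308470-74316789, EREG chr4:74365145-74388749 and AREG chr4:74445136-74455005, all on the plus strand, and BTC occupies chr4:74744759-74794523 on the minus strand. The gaps are 48.4 kb, 56.4 kb and 289.8 kb, and the whole span is 486.1 kb. Their promoters are shown because the levels of these neighbours differed widely, as reported below. Each line gives the 250 bases before the gene's start, 5′ to 3′ on the gene's strand, from RefSeq (GRCh38.p14), at chr4:74444886-74445135 for AREG, chr4:74364895-74365144 for EREG, chr4:74308220-74308469 for EPGN and chr4:74794524-74794773 for BTC. Capitals mark a TATA box (TATAAA) or a cyclic AMP response element (CRE, TGACGTCA).
AREG: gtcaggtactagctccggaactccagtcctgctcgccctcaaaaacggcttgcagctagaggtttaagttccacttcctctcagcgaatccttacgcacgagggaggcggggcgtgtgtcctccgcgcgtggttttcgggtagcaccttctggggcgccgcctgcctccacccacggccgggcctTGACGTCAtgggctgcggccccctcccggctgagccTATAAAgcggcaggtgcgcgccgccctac
EREG: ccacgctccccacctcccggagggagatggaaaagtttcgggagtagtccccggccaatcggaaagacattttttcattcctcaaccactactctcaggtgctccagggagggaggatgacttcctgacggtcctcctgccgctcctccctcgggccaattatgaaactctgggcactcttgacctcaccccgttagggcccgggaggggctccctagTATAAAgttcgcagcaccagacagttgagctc
EPGN: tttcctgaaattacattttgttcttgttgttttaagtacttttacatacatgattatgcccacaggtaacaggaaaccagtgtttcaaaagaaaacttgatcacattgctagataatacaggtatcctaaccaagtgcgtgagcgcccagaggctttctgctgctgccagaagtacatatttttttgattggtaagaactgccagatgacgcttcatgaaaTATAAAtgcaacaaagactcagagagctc
BTC: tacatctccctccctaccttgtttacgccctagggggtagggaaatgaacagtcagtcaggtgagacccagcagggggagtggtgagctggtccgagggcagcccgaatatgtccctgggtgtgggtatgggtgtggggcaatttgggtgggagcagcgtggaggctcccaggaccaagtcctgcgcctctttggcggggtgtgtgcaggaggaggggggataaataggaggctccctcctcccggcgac
AREG, EREG and EPGN each held 1 TATA box, which started 29, 32 and 29 bases before the gene's start, and the BTC window held none. AREG also held 1 CRE, which started 65 bases before the gene's start and did not overlap the TATA box. Both strands were searched. Among 27305 RefSeq promoters of the same length, 11.1% held a TATA box and 1.77% a CRE. The share of G and C bases was 65.2% for AREG, 58.0% for EREG, 62.0% for BTC and 38.0% for EPGN, against a median of 58.0% over all promoters. RefSeq windows were matched for 8 of the 9 genes, and ERBB3 was not matched. The AP-1 motif TGANTCA was found in the ERBB2 window alone, against 6.6% of all promoters. The p53 family half-site was found in none of the 8 windows, against 5.53% of all promoters. A match or its absence describes these letters only.

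The largest differences lay between the cell lines. AREG, amphiregulin, was the most abundant member in AsPC-1 but ranked below 5 other members in PANC-1. In AsPC-1 it measured 1556.6 and 1770.1 TPM in mock, 2144.4 and 1928.0 TPM with TAp63, and 2210.2 and 2077.6 TPM with deltaNp63. In PANC-1 it measured 1.23 and 1.59 TPM in mock, 1.88 and 0.831 TPM with TAp63, and 1.56 and 1.46 TPM with deltaNp63. Every AsPC-1 library was at least 828.0 times above every PANC-1 library. These are bulk values, so fewer expressing cells and less RNA per cell cannot be told apart. By its mean over the AsPC-1 libraries, AREG ranked 66 among all genes.

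EREG, epiregulin, was second in AsPC-1. It measured 276.7 and 268.8 TPM in AsPC-1 mock, 391.9 and 293.6 TPM with TAp63, and 398.6 and 302.7 TPM with deltaNp63. In PANC-1 it measured 4.13 and 4.55 TPM in mock, 3.48 and 3.11 TPM with TAp63, and 3.69 and 3.95 TPM with deltaNp63. The ranges of the lines did not overlap, and EREG stood above AREG in every PANC-1 library. The ratio of AREG to EREG was 5.47 to 6.86 in AsPC-1 and 0.267 to 0.54 in PANC-1.

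HBEGF, heparin-binding EGF-like growth factor, was the most abundant of the 6 ligand transcripts in PANC-1. Its AsPC-1 values were 128.5 and 143.7 TPM in mock, 143.2 and 149.7 TPM with TAp63, and 122.1 and 144.0 TPM with deltaNp63. Its PANC-1 values were 9.55 and 12.7 TPM in mock, 9.94 and 8.48 TPM with TAp63, and 10.3 and 12.2 TPM with deltaNp63. The lines did not overlap, but the gap was smaller than for AREG, EREG and TGFA. TGFA, transforming growth factor alpha, had AsPC-1 values of 75.0 and 82.5 TPM in mock, 83.6 and 75.9 TPM with TAp63, and 108.0 and 72.0 TPM with deltaNp63. Its PANC-1 values were 0.65 and 0.986 TPM in mock, 1.01 and 0.786 TPM with TAp63, and 0.48 and 0.65 TPM with deltaNp63. TGFA was thus near 1 TPM or below throughout PANC-1.

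BTC (betacellulin) and EPGN (epigen), both neighbours of AREG and EREG on chromosome 4, stayed low in both lines. BTC ranged from 0.439 to 1.01 TPM in AsPC-1 and from 0.224 to 0.635 TPM in PANC-1, and the ranges overlapped. EPGN was listed at 0 in all PANC-1 libraries and in 2 AsPC-1 libraries, and its highest value was 0.367 TPM in the second AsPC-1 mock library. Both genes fell below the filter of 1 TPM in at least 2 libraries, so the other 7 members are those tested. Without the filter, neither gene passed the test between the mock groups (log2 fold change of -0.36 and limma adjusted p = 0.0958 for BTC, -0.23 and 0.201 for EPGN).

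**Figure D1:**
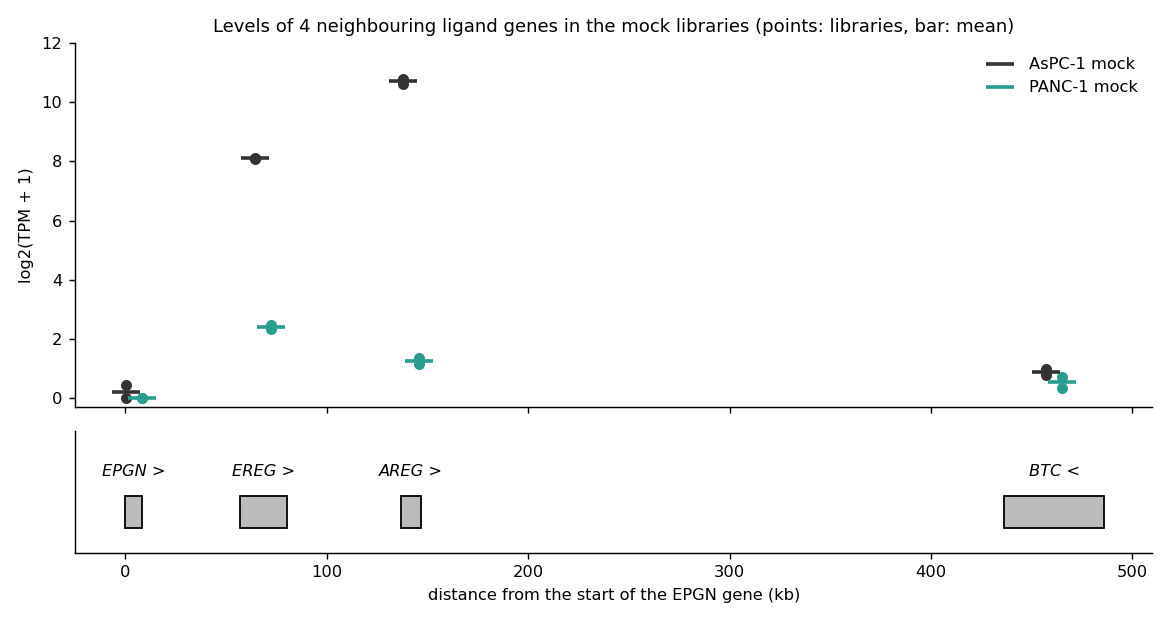
Levels in the mock libraries (log2(TPM + 1), points for libraries, bars for means, 2 libraries a group) above a map of the 4 neighbouring ligand genes, placed by distance from the start of EPGN in kb. AREG and EREG are far higher in AsPC-1 than in PANC-1, while EPGN and BTC are low in both lines.

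EGFR, the receptor for all 6 ligands, was the leading receptor transcript in both lines. It measured 131.8 and 154.1 TPM in AsPC-1 mock, 133.8 and 145.6 TPM with TAp63, and 175.0 and 114.6 TPM with deltaNp63. In PANC-1 it measured 61.2 and 69.4 TPM in mock, 67.1 and 61.6 TPM with TAp63, and 62.7 and 73.7 TPM with deltaNp63. All AsPC-1 values lay above all PANC-1 values, by a factor of at least 1.55. ERBB3, the neuregulin receptor, measured 39.5 and 36.6 TPM in AsPC-1 mock, 28.0 and 35.9 TPM with TAp63, and 15.6 and 30.8 TPM with deltaNp63. It measured 2.18 and 1.29 TPM in PANC-1 mock, 2.33 and 1.87 TPM with TAp63, and 2.17 and 1.11 TPM with deltaNp63. The first AsPC-1 deltaNp63 library held the lowest ERBB3 value of that line, yet it was still above every PANC-1 value.

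ERBB2, the receptor without a known ligand, was the receptor whose levels overlapped between the lines. Its AsPC-1 values were 13.2 and 10.9 TPM in mock, 9.80 and 14.7 TPM with TAp63, and 5.30 and 8.78 TPM with deltaNp63. Its PANC-1 values were 13.0 and 12.1 TPM in mock, 9.15 and 12.3 TPM with TAp63, and 13.0 and 13.9 TPM with deltaNp63. The lines overlapped, and both AsPC-1 deltaNp63 libraries lay below the other 10 libraries.

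**Figure D2:**
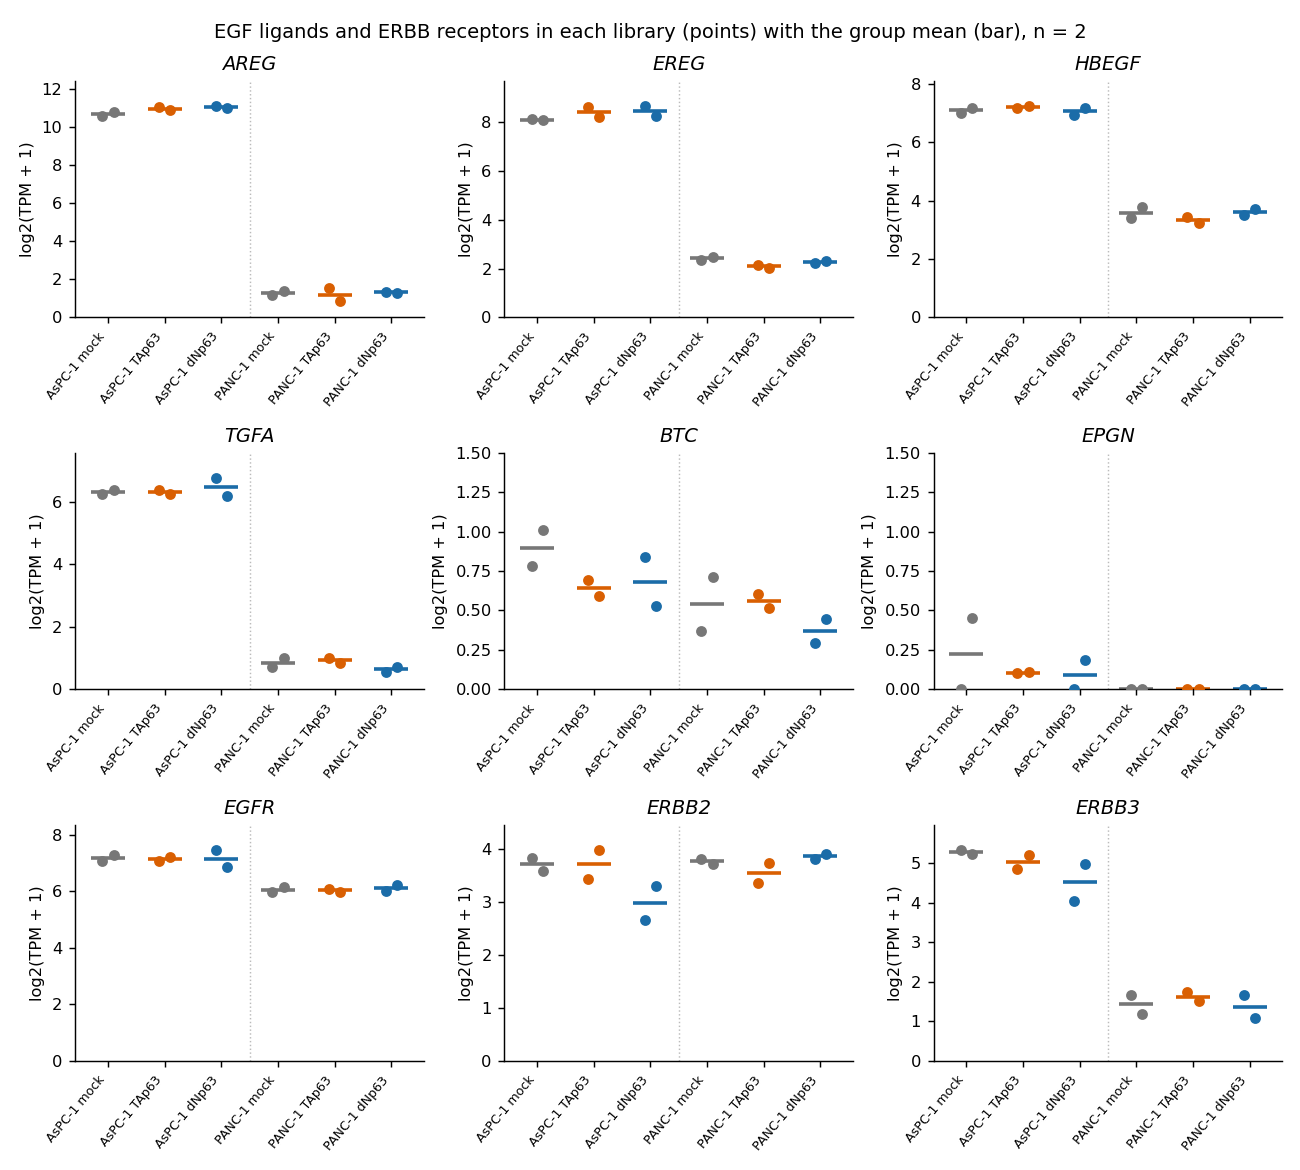
Level of each ligand and receptor gene on a log2(TPM + 1) axis by cell line and construct (dNp63 is deltaNp63), with a point for each library and a bar for the mean of 2 libraries. The panels have their own vertical scales. AREG, EREG, HBEGF, TGFA and ERBB3 separate widely between AsPC-1 and PANC-1, EGFR separates less, and ERBB2 and BTC overlap.

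Between the mock groups, 6 of the 7 tested members differed, and all 6 were lower in PANC-1. The background was high: 72.5% of the 14767 genes tested differed between the mock groups, and 27.9% were lower in PANC-1. The median log2 fold change, PANC-1 against AsPC-1, was -3.85 over the 7 members and 0.24 over all genes. In limma's test on log2(TPM + 1) with Benjamini-Hochberg adjustment, AREG differed by -9.43 (SE 0.18, adjusted p = 6.13e-11), EREG by -5.68 (SE 0.155, adjusted p = 4.8e-10) and TGFA by -5.46 (SE 0.181, adjusted p = 1.94e-09). HBEGF differed by -3.51 (SE 0.148, adjusted p = 1.13e-08), ERBB3 by -3.85 (SE 0.302, adjusted p = 1.33e-06) and EGFR by -1.12 (SE 0.177, adjusted p = 0.000244). ERBB2 did not pass, at 0.06 (95% interval -0.47 to 0.58, adjusted p = 0.837). The pseudocount of 1 understates the change of low genes. On the TPM scale the ratio of the AsPC-1 to the PANC-1 mock mean was 1176.7 for AREG, 96.3 for TGFA, 62.9 for EREG, 21.9 for ERBB3, 12.2 for HBEGF, 2.19 for EGFR and 0.961 for ERBB2. The ratios of AREG and TGFA rest on few reads in PANC-1. With a single line of each kind, the lines differ in every other property as well, so these differences describe 2 cell lines. Epithelial markers also differed: 5 of 6 (EPCAM, KRT8, KRT18, KRT19 and CDH1) were higher in every AsPC-1 library than in every PANC-1 library, with EPCAM at 1255.8 to 1409.7 TPM against 42.6 to 49.5 TPM, and KRT7 was higher in every PANC-1 library. The 6 epithelial markers summed to 7141.6 to 10564.9 TPM in AsPC-1 and 3500.4 to 3868.6 TPM in PANC-1, and their part in the result was not tested.

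Within AsPC-1 the order by median over 6 libraries was AREG, EREG, HBEGF, EGFR, TGFA, ERBB3, ERBB2, BTC and EPGN. HBEGF and EGFR overlapped, and every other pair of neighbours in that order was separated in all libraries. Within PANC-1 the order was EGFR, ERBB2, HBEGF, EREG, ERBB3, AREG, TGFA, BTC and EPGN. There ERBB2 overlapped HBEGF, AREG overlapped ERBB3, TGFA overlapped AREG, and BTC overlapped TGFA. The other neighbours were separated in all libraries.

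Summed over the 6 ligands, AsPC-1 libraries held 2037.5 to 2839.7 TPM and PANC-1 libraries 13.6 to 20.5 TPM. Summed over the 3 receptors, they held 154.2 to 201.6 TPM and 75.8 to 88.8 TPM. The ratio of these ligand to receptor transcripts was 11.1 to 16.8 in AsPC-1 and 0.18 to 0.247 in PANC-1. The 6 ligands thus outnumbered the 3 receptors in transcripts in AsPC-1 and not in PANC-1. Neuregulins are outside this sum although ERBB3 is counted. The neuregulin NRG1 alone stood at 13.2 to 22.6 TPM in PANC-1 and at or below 0.144 TPM in AsPC-1. AREG made up 76.4% to 80.0% of the ligand sum in AsPC-1 and 6.1% to 11.2% in PANC-1. HBEGF made up 4.3% to 6.34% in AsPC-1 and 59.1% to 65.6% in PANC-1. EGFR was the larger share of the receptor sum in every library, at 71.5% to 89.3% in AsPC-1 and 80.1% to 85.4% in PANC-1. ERBB3 took 7.96% to 21.4% in AsPC-1 and 1.26% to 2.96% in PANC-1. The highest EGFR share and the lowest ERBB3 share of AsPC-1 came from the first deltaNp63 library.

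**Figure D3:**
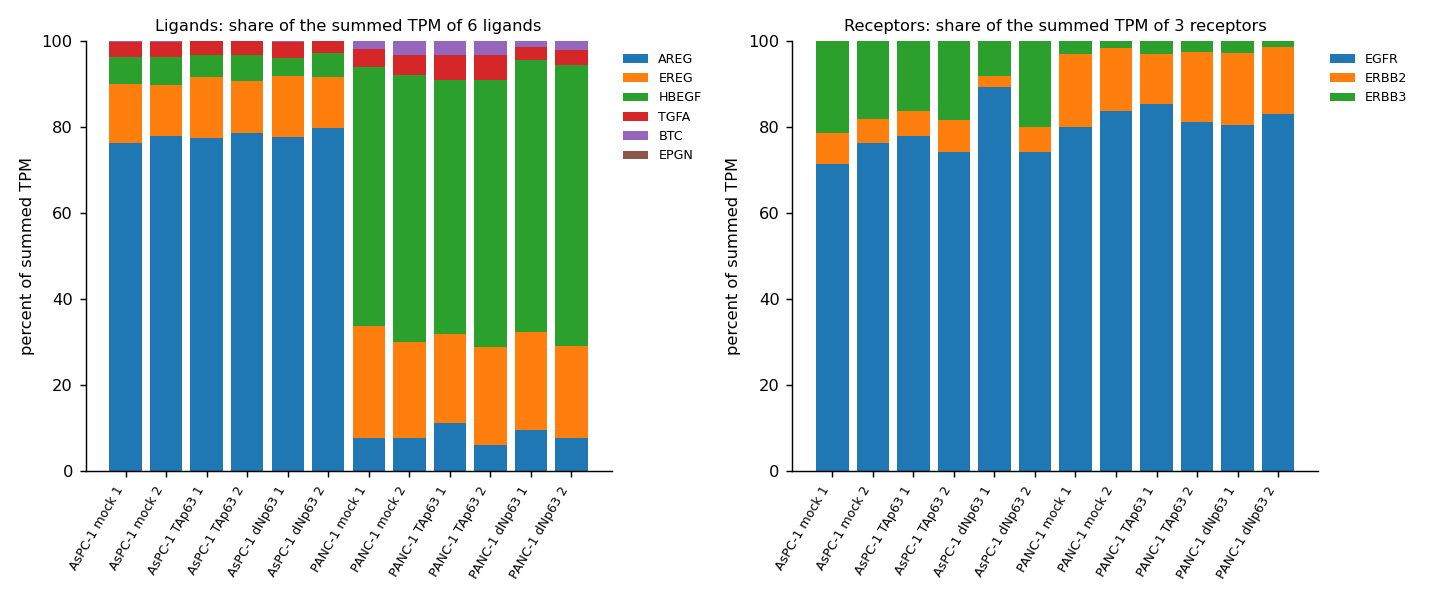
Share of each gene in the summed TPM of the 6 ligands (left) and of the 3 receptors (right), in percent, with a bar for each of the 12 libraries (dNp63 is deltaNp63). AREG fills 76.4% to 80.0% of the AsPC-1 ligand bars and HBEGF 59.1% to 65.6% of the PANC-1 ligand bars, while EGFR leads the receptor bars of both lines.

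No member passed the test with either construct in either line. In AsPC-1 with TAp63, AREG and EREG lay above mock in both libraries and ERBB3 below it in both. These were 3 of 7 tested members whose values did not overlap between the groups, against 46.6% of all tested genes. The log2 fold changes were 0.29 for AREG (95% interval -0.11 to 0.69, limma adjusted p = 0.482), 0.31 for EREG (-0.03 to 0.66, 0.379) and -0.25 for ERBB3 (-0.93 to 0.42, 0.761). HBEGF, TGFA, EGFR and ERBB2 lay between -0.03 and 0.11. TAp63 changed 0.637% of all genes in AsPC-1, so few genes of any kind passed there. The median was 0.02 over the members and -0.08 over all genes. At an unadjusted p under 0.05, 0 of the 7 members passed in limma, against 15.1% of all genes.

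In AsPC-1 with deltaNp63, the values of 4 of 7 members did not overlap mock, against 52.1% of all genes. The mock libraries are those of the TAp63 comparison. AREG and EREG lay above mock, and ERBB2 and ERBB3 below. The mean of ERBB2 was 7.04 ± 2.46 TPM (SD, n = 2) with the construct, and that of ERBB3 was 23.2 ± 10.8 TPM against 38.0 ± 2.05 TPM in mock, but neither difference passed the test. The log2 fold changes were -0.73 for ERBB2 (95% interval -1.25 to -0.20, limma adjusted p = 0.0776) and -0.76 for ERBB3 (-1.44 to -0.09, 0.129). AREG stood at 0.37 (-0.03 to 0.77, 0.202) and EREG at 0.35 (0.00 to 0.69, 0.166). HBEGF (-0.03), EGFR (-0.01) and TGFA (0.16) were nearer to 0 with both libraries. In all, 7.14% of genes passed in this comparison. The median was -0.01 over the members and -0.12 over all genes. At an unadjusted p under 0.05, 3 of the 7 members passed (EREG, ERBB2 and ERBB3), against 29.7% of all genes.

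These AsPC-1 deltaNp63 values turned on which replicate was kept. The first library held 5.30 TPM of ERBB2 and 15.6 TPM of ERBB3, and the second 8.78 and 30.8 TPM. With the first library left out, ERBB2 stood at -0.41, ERBB3 at -0.29 and EREG at 0.15, while EGFR moved to -0.31 and TGFA turned to -0.13. With the second left out, ERBB2 stood at -1.04, ERBB3 at -1.23 and EREG at 0.55. Each of these fits left 1 library in the group, so only their effect sizes are given. Without the second library EGFR stood at 0.29 and TGFA at 0.45, so the sign of both followed the library that was kept. AREG stood at 0.32 without the first library and 0.41 without the second. HBEGF stood at 0.08 without the first and -0.15 without the second, so its sign followed the library as well. Over 22 alternative settings the log2 fold change lay between -1.04 and -0.41 for ERBB2 and between -1.23 and -0.29 for ERBB3. For EREG it lay between 0.15 and 0.56. The replicates of this group differed most over all genes, and the first library had the lowest epithelial marker sum of the line, 7141.6 TPM. The replicates had a median absolute log2 difference of 0.211 against 0.092 to 0.148 in the other groups. The part of that low marker sum in these values was not tested. Centring each library on its median moved the median of all genes in this comparison from -0.12 to 0.09. AREG then stood at 0.58, EREG at 0.56, ERBB2 at -0.52 and ERBB3 at -0.56, while HBEGF and EGFR turned from slightly negative to 0.17 and 0.20. None of these passed.

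Between the constructs in AsPC-1, ERBB2 was higher with TAp63 by 0.73 (95% interval 0.20 to 1.25, unadjusted p = 0.0114, limma adjusted p = 0.628) and ERBB3 by 0.51 (-0.17 to 1.18, 0.661 adjusted). The ligands and EGFR lay between -0.15 and 0.14. No member passed, against 0.0203% of all genes. ERBB2 was the 1 member of 7 with an unadjusted p under 0.05 in limma, against 7.92% of all genes. Without the first AsPC-1 deltaNp63 library ERBB2 stood at 0.41 and ERBB3 at 0.04. Without the second, ERBB2 stood at 1.05 and ERBB3 at 0.98. Each of these fits left 1 library in that group, so the effect sizes alone are given here. For ERBB2 the log2 fold change lay between 0.41 and 1.05 over the alternatives.

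In PANC-1 the 95% interval of every tested member included 0 with either construct. With TAp63, EREG lay below mock in both libraries, at 3.29 ± 0.26 against 4.34 ± 0.293 TPM (SD, n = 2). Its log2 fold change was -0.31 (95% interval -0.66 to 0.03, limma adjusted p = 1). It was the 1 member of 7 whose values did not overlap mock, against 42.4% of all genes. HBEGF stood at -0.24, ERBB2 at -0.22 and ERBB3 at 0.20, with AREG, TGFA and EGFR between -0.07 and 0.06. With deltaNp63, EREG was again the 1 member that did not overlap mock, at -0.15, against 27.1% of all genes, and the other members lay between -0.21 and 0.09. These 2 comparisons share the mock libraries. No member passed with TAp63, with deltaNp63 or between the constructs, against 0.00677%, 0.0406% and 0.0271% of all genes. With TAp63 the 1 gene that passed was TP63 itself. The median over the members was -0.07 with TAp63 and 0.02 with deltaNp63, against 0.00 and -0.02 over all genes. At an unadjusted p under 0.05, 0 members passed in these 3 comparisons, against 3.41%, 2.34% and 2.96% of all genes in limma.

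**Figure D4:**
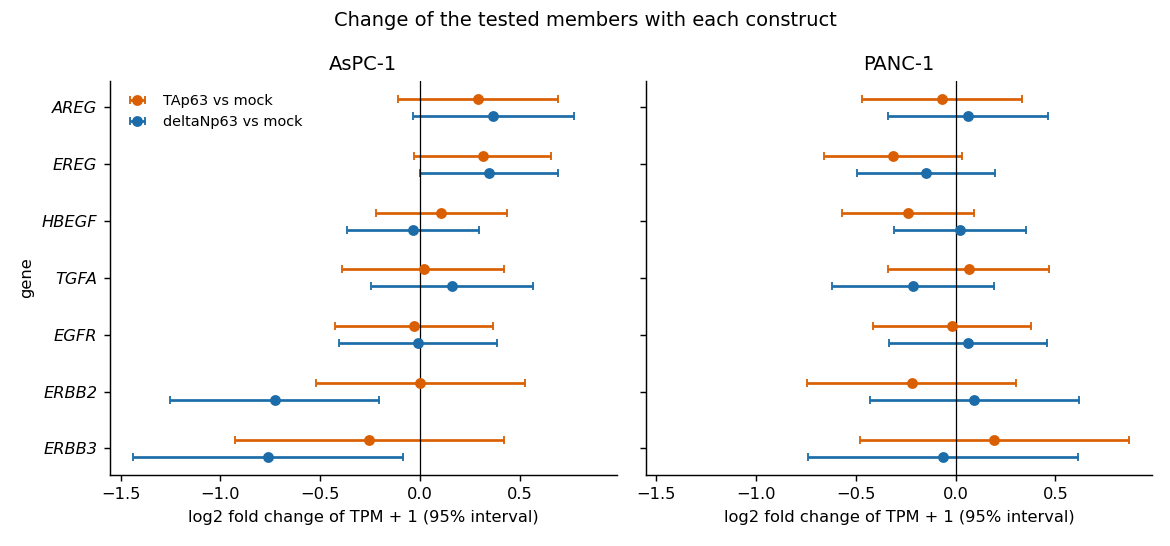
Log2 fold change of TPM + 1 against mock for the 7 tested members (points, with 95% intervals from limma) in AsPC-1 (left) and PANC-1 (right). With deltaNp63 in AsPC-1, ERBB2 at -0.73 and ERBB3 at -0.76 lie lowest. No change passed the adjusted test.

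Whether a construct acted differently in the 2 lines was tested as a difference of differences, PANC-1 minus AsPC-1. No member passed, against 0.0745% of all genes for TAp63 and 0.582% for deltaNp63. Of the 7 members, 1 had an unadjusted p under 0.05 in limma for TAp63 and 2 for deltaNp63. The share over all genes was 10.4% and 16.5%. EREG came nearest for TAp63, at -0.63 (95% interval -1.12 to -0.14, unadjusted p = 0.017, limma adjusted p = 0.405): it lay above mock in AsPC-1 and below mock in PANC-1. For deltaNp63, ERBB2 differed by 0.82 (0.08 to 1.56, unadjusted p = 0.033, adjusted p = 0.271), EREG by -0.50 (-0.98 to -0.01, 0.0475 and 0.299) and ERBB3 by 0.70 (-0.25 to 1.66, 0.133 and 0.425). Without the first AsPC-1 deltaNp63 library these stood at 0.50 for ERBB2, -0.30 for EREG and 0.23 for ERBB3. Without the second, they stood at 1.14, -0.69 and 1.17. Each of these fits left 1 library in that group, so the effect sizes alone are given here. For ERBB2 the difference lay between 0.24 and 1.14 over the alternatives.

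The members' transcripts were also compared. AREG rested on 1 matched transcript row, and EREG and HBEGF on 1 main transcript each, which held at least 95.5% and 98.0% of the gene in every library. For EGFR, the full-length transcript ENST00000275493, with 3630 coding bases, held 83.2% to 92.6% of the gene in AsPC-1 and 83.9% to 92.7% in PANC-1. The shorter ENST00000342916, with 1884 coding bases, held 5.7% to 15.2% and 3.41% to 11.8%. A shorter EGFR product that lacks the kinase domain is known from such transcripts. For ERBB3, the full-length ENST00000267101 held 67.8% to 75.6% in AsPC-1 but 15.2% to 39.8% in PANC-1, where the whole gene was at most 2.33 TPM and its 16 listed transcripts shared few reads. ERBB2 was spread over 17 transcripts, and the largest share, ENST00000541774, moved between 13.6% and 67.7% among AsPC-1 libraries, wider than any group difference. Shares within ERBB2 were therefore not compared. ERBB2 overlaps PGAP3, MIEN1 and MIR4728, ERBB3 overlaps ENSG00000257411, EGFR overlaps EGFR-AS1 and TGFA overlaps TGFA-IT1. How reads were divided among overlapping genes is not given in the sources used here, so those levels carry that uncertainty.

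Over the 12 libraries, centred within each line on the log2(TPM + 1) scale, several of the members' correlations depended on the first AsPC-1 deltaNp63 library. ERBB2 and ERBB3 had a Pearson correlation of 0.648, EGFR and TGFA of 0.669, and AREG and EREG of 0.615. EREG and ERBB3 stood at -0.748, and ERBB2 and TGFA at -0.745. Over the 11 libraries without that one, the same 5 pairs stood at 0.059 for ERBB2 and ERBB3, 0.392 for EGFR and TGFA, 0.556 for AREG and EREG, -0.621 for EREG and ERBB3 and -0.432 for ERBB2 and TGFA. Not every pair came nearer to 0 without that library. HBEGF and ERBB3 went from -0.08 to -0.689, and ERBB2 and EGFR from -0.327 to 0.363. This alternative was chosen after seeing the data, and as the points share libraries all these values are descriptions. Since no member passed with a construct, the most similar genes were looked up for ERBB2, which had the lowest unadjusted p. The 3 protein-coding genes most like it were MAD2L1BP (0.956), SURF1 (0.92) and TMEM268 (0.913). Without that library their values were 0.897, 0.782 and 0.791. TMEM268, for example, measured 13.1 and 10.9 TPM in AsPC-1 mock and 7.75 and 9.88 TPM with deltaNp63.

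The other genes of the family completed the picture of which receptor has a ligand transcript in which line. NRG1 and NRG2, neuregulins that bind ERBB3 and ERBB4, reached 22.6 and 14.7 TPM in PANC-1, where NRG1 was at least 13.2 TPM, and stayed at or below 0.144 and 0.0222 TPM in AsPC-1. The log2 fold change of PANC-1 mock against AsPC-1 mock was 4.05 for NRG1 (SE 0.225, limma adjusted p = 9.32e-08) and 3.72 for NRG2 (SE 0.123, 1.86e-09). NRG4, a ligand of ERBB4, went the other way, at 2.86 to 5.98 TPM in AsPC-1 and 0.14 to 1.4 TPM in PANC-1 (-1.75, SE 0.348, 0.00111). EGF, NRG3 and ERBB4 stayed at or below 0.106 TPM in all libraries. The line with more ERBB3 was therefore the line with less NRG1 and NRG2.

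Of 9 genes of ligand shedding and trafficking, 8 were tested. Between the mock groups 3 were higher and 4 lower in PANC-1, with a median of -0.34 against 0.24 over all genes. As background for this list and the next 3, 72.5% of all genes differed and 27.9% were lower in PANC-1. ADAM17, the main protease that sheds AREG, EREG, HBEGF and TGFA, was higher by 0.26 (adjusted p = 0.0476), and ADAM10, which sheds BTC, did not pass at 0.02 (0.873). RHBDF2, an inactive rhomboid protein that carries ADAM17 to the cell surface, was higher by 1.99 (4.68e-06), while its relative RHBDF1 was lower, at -0.71 (0.000565). These genes were named after their values were seen. None of the 8 passed against mock with a construct.

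Of 26 adaptors and relays of the RAS, RAF, ERK and PI3K routes, all 26 were tested. In mock cells 18 were higher and 5 lower in PANC-1, with a median of 0.50 against 0.24 over all genes. With deltaNp63 in AsPC-1, 2 fell: PLCG1, phospholipase C gamma, measured 7.51 to 7.57 TPM in mock and 3.75 to 4.91 TPM with the construct (-0.69, SE 0.113, limma adjusted p = 0.0146). GRB2, the adaptor that links receptors to RAS, measured 71.4 to 77.5 TPM and 57.9 to 58.0 TPM (-0.36, SE 0.079, 0.037). The list's median there was -0.20 against -0.12 over all genes, and 2 of 26 lies near the 7.14% background.

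Among 17 negative regulators, 16 were tested. In mock cells 7 were higher and 7 lower in PANC-1, with a median of 0.09 against 0.24 over all genes. SPRY1, an inhibitor of receptor signalling, was the 1 gene that fell with deltaNp63 in AsPC-1, from 3.80 to 5.42 TPM in mock to 1.88 to 3.04 TPM (-0.70, SE 0.182, limma adjusted p = 0.049). The call, 1 of 16 against 7.14% of all genes, was lost with the replicate block, without trend, with quantile normalization, with a pseudocount of 0.1 and in 11 of the 12 fits that left out a library. ERRFI1, a feedback inhibitor that binds EGFR and ERBB2, was lower in PANC-1 mock at -1.05 (4.73e-07) and was named after its value was seen. Among 16 genes induced by ERK activity, 15 were tested. In mock cells 10 were lower and 5 higher in PANC-1, with a median of -1.32 against 0.24 over all genes. Of these, named after their values were seen, the ERK phosphatases DUSP4 and DUSP6 stood at -6.88 (adjusted p = 5.36e-11) and -3.35 (3.32e-08) and the transcription factor EGR1 at -3.80 (1.06e-07), while the phosphatase DUSP5 stood at 3.64 (5.93e-08). ETV4, a transcription factor downstream of ERK, was the 1 gene that fell with deltaNp63 in AsPC-1, from 40.3 to 41.9 TPM in mock to 22.8 to 30.3 TPM (-0.62, SE 0.153, 0.044). It is 1 of 15, against 7.14% of all genes, and the call was lost in 9 of the 12 fits that left out a library. No gene of the 5 lists passed against mock with TAp63 in AsPC-1 or with a construct in PANC-1. The 4 calls with deltaNp63 depended on single libraries. Without the first AsPC-1 deltaNp63 library the log2 fold changes were -0.53 for PLCG1 (limma adjusted p = 0.0551), -0.35 for GRB2 (0.138), -0.46 for SPRY1 (0.257) and -0.42 for ETV4 (0.23), and none passed. None of the 4 passed when one AsPC-1 mock library, the first or the second, was left out, at adjusted p of 0.0714 to 0.221. GRB2 kept its size without the first deltaNp63 library and lost its call. Each of these fits left 1 library in a group that was compared. In the main fit, with both deltaNp63 libraries, 0 to 2 genes of each list passed.

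**Figure D5:**
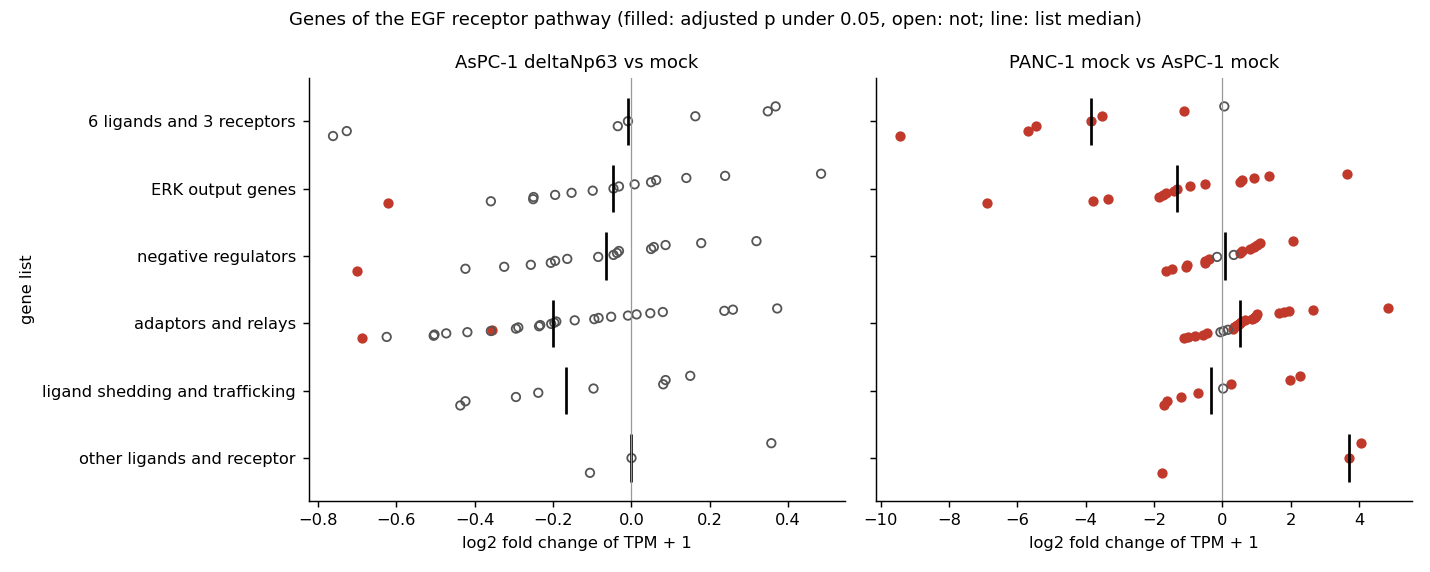
Log2 fold change of TPM + 1 for the tested members and the 5 lists of pathway genes, with deltaNp63 against mock in AsPC-1 (left) and PANC-1 mock against AsPC-1 mock (right). Filled points had an adjusted p under 0.05, open points did not, and the line is the list's median. On the left 4 list genes and no member are filled, and on the right 6 of 7 members are filled and lie below 0.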

How the data were processed

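Poly(A) RNA of 12 libraries was measured with a stranded kit, per the labels' protocols. The authors deposited TPM values for 153329 transcripts; every column sums to 1000000. The aligner, annotation and genome build are not given in the sources used here. Transcripts were summed to genes through GENCODE v44 (hg38) in Python 3.11.15 with pandas 2.3.3. The 13510 unmatched transcripts stayed out, so a gene's sum can be too low; 11 of them exceeded 50 TPM in every AsPC-1 library and stayed below 2 TPM in every PANC-1 library. Matched transcripts held 89.6% to 90.5% of the TPM. TPM keeps no read count; the spacing of low values gave a rough estimate of depth, in units of 1000000 reads, of 33.2 to 43.6 per library.

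The 14767 genes that reached 1 TPM in 2 or more libraries were tested as log2(TPM + 1) with limma 3.58.1 (eBayes with trend; R 4.3.3, tables read by data.table, version 1.17.8) in 1 model of 6 group means with 6 residual degrees of freedom. The 9 contrasts had two-sided p-values, adjusted by Benjamini-Hochberg over all genes within a contrast, with a threshold of 0.05. The script was tested on simulated data. By rule, the members, TP63 and up to 6 called genes of each of the 5 pathway lists (70 genes in all) were named. So were the 3 genes most like a called member or, with none called, the member of lowest p. The other family genes, and list genes named for the comparison of the mock groups, fell outside this rule. The members and lists were chosen with earlier results of these data known. Alternatives were no trend, quantile normalization, median centring, no filter, a mean of at least 5 TPM, a pseudocount of 0.1, the compared groups only, the 6 libraries of a line only, a replicate block, transcript rows, and leaving out each library.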

Additional observations from a re-analysis of the deposited data

How the results depend on the processing

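Between the mock groups, the same 6 members passed under each alternative, leave-one-out included (6 to 6). With the constructs, the count of members passed stayed at 0 except when a library was left out: 0 to 3 for deltaNp63 against mock in AsPC-1, 0 to 1 for TAp63 against deltaNp63 in AsPC-1 and 0 to 1 for the difference between the lines in the deltaNp63 effect. Each nonzero count came without the second AsPC-1 deltaNp63 library, where more of all genes passed in the same comparison as well. That fit left 1 library in the group, so these counts are not read as results. Of 1365 alternative values of single members, 1360 kept their side of the threshold and 5 passed only in the alternative; 79 changed sign while not passing in either.

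The pathway list counts, over the 4 comparisons of a construct with mock, were less stable. For the ERK output genes the count of 1 became 0 without trend, with quantile normalization, median centring, no filter, only the groups compared or only the 6 libraries of a line, and 0 to 4 with a library left out. For the adaptors and relays the count of 2 became 1 without trend, with median centring or no filter, 0 with quantile normalization, only the groups compared or only the 6 libraries, 6 with a mean of at least 5 TPM, and 0 to 13 with a library left out. For ligand shedding the count of 0 became 1 with a mean of at least 5 TPM and 0 to 2 with a library left out. For the negative regulators the count of 1 became 0 without trend, with quantile normalization, no filter, a pseudocount of 0.1, only the groups compared or only the 6 libraries, and 0 to 3 with a library left out. Each highest count came without the second AsPC-1 deltaNp63 library, where more of all genes also passed with deltaNp63 in AsPC-1. The cause was not tested.

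The replicate numbers were shared between groups without a label saying what they pair, and same-numbered libraries deviated together with correlations of -0.094 to 0.293. With the replicate block, 0 members passed with the constructs and 6 between the mock groups. The block gave 2 ERK output genes, 5 adaptors and relays, 1 shedding gene, 0 negative regulators and 0 other family genes. With 2 libraries a group and TPM values, differences of the size seen for ERBB2 and ERBB3 could not be settled. Values near or below 1 TPM (BTC, EPGN, and AREG and TGFA in PANC-1) rest on few reads.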
